A study of Mus musculus with 12 samples.

Results

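The enzymes that carry glucose to lactate were followed at the transcript level in the hippocampus of C57BL/6 mice. The genes were Hk1, Gpi1, Pfkm, Pfkp, Aldoa, Pgk1, Eno2, Pkm, Ldha and Ldhb. These 10 genes were taken by gene name, with intronic and processed-pseudogene rows left out. They occupied 11 of the 22306 loci in the table, because Ldhb had a second row. RNA was sequenced from 12 libraries in 3 groups of 4, from mice given 10 µg of siRNA through the nose and killed 3 days later. The siScramble group received a scrambled sequence, the siHdac4 group an siRNA against Hdac4, a class IIa histone deacetylase, and the siBdnf group one against Bdnf, a neurotrophin. No allele or transgene is named for any group, and neither sex nor age is stated. Each group was a hippocampus of many cell types, so that fewer cells of a type and less RNA per cell cannot be told apart. Whether the libraries of a group are separate animals is unstated, and p-values then reflect only how much these libraries vary, part of which may be technical.

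Glycolysis splits glucose into pyruvate in the cytosol, with a net gain of ATP, and lactate dehydrogenase exchanges pyruvate and lactate. Hexokinase, phosphofructokinase and pyruvate kinase catalyse the steps that are practically irreversible in cells, and the enzymes between them work close to equilibrium. Several steps are carried out by isozymes with different tissue preferences. In the brain, Eno2 (neuron-specific enolase) is the neuronal enolase, while Eno1 and the aldolase Aldoc are prominent in glia.

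The promoters of the 2 genes with the largest differences between siHdac4 and siScramble on the log2(FPKM + 1) scale are shown, since they differ in the motifs they hold. The 300-base windows (250 bases before and 50 after the RefSeq start) come from RefSeq on GRCm38.p6. Pgk1 is at chrX:106186850-106187149 on the plus strand, and Eno2 at chr6:124769624-124769923 on the minus strand. Capitals mark, on either strand, ACGTG and its variant GCGTG, which are forms of the core bound by hypoxia-inducible factors, and the GC box GGGCGG, which is bound by Sp1.
Pgk1: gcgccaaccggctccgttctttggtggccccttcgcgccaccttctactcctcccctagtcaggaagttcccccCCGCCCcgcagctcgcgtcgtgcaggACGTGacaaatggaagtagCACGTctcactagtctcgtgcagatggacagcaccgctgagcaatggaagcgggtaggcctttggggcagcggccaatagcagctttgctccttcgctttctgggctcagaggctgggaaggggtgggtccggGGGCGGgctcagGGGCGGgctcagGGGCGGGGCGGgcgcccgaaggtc
Eno2: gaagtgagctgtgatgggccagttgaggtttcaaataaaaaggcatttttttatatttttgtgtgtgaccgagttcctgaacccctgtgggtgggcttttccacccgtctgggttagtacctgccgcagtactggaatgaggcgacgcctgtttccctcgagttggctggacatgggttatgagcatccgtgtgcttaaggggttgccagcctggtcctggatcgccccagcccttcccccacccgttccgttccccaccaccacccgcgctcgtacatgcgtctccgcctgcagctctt

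The Pgk1 window held ACGTG at 2 places and GGGCGG at 5, and 66.7% of its bases were G or C. The Eno2 window held none of the 4 motifs searched, with 56.3% G or C. All 10 genes were matched by symbol, with 18 windows between them because some genes have several starts. ACGTG lay in 8 of the 18 windows (of Hk1, Pfkm, Aldoa, Pgk1, Pkm and Ldha) and in 19.6% of all 32851 windows of the same length. GCGTG lay in 7 of the 18 (of Hk1, Pfkm, Pfkp, Ldha and Ldhb) and in 32.4% of all. The E-box CACGTG, which contains ACGTG, lay in 2 of the 18 (of Pfkm and Ldha) and in 7.15% of all, and GGGCGG lay in 7 of the 18 (of Gpi1, Pfkp, Aldoa, Pgk1, Pkm and Ldha) and in 35.7% of all. The motif GCGTG can overlap the GC box. A match only describes the letters.

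No glycolysis gene passed an adjusted p of 0.05 in limma in any of the 3 comparisons, and each was tested at 1 locus. For siHdac4 against siScramble 0 of 10 passed, where 0.00545% of the 18339 loci tested did (1 locus). For siBdnf against siScramble 0 of 10 passed, beside 0% of all loci. For siHdac4 against siBdnf 0 of 10 passed, beside 0.00545% of all loci. Under an unadjusted p of 0.05 lay 2 of 10 genes for siHdac4 against siScramble (1825 loci, 9.95% of all), 1 of 10 for siBdnf against siScramble (1581 loci, 8.62%) and 2 of 10 for siHdac4 against siBdnf (2863 loci, 15.6%). Each of these counts of enzymes differs from the share of all loci by about 1 gene or less.

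Levels are in FPKM, fragments scaled to transcript length and to the fragments of the library, so levels of different genes can be set side by side. That comparison is limited, because how reads were divided between near-identical copies is unstated. The loci of Pfkm, Hk1 and Ldha also overlap only 60.4%, 64.6% and 69.5% of their GENCODE genes. Pkm stood highest with a mean over 12 libraries of 556 FPKM, followed by Eno2 at 170.6, Pfkm at 146 and Gpi1 at 130.2 FPKM. Pfkp at 94.8, Pgk1 at 88.8, Ldhb at 69.4, Ldha at 61.6 and Hk1 at 46.1 FPKM came next. The Pkm level lay above that of Eno2 in 12 of 12 libraries and the ranges were apart, as they were for Pfkm above Gpi1, Gpi1 above Pfkp and Ldha above Hk1. Eno2 and Pfkm overlapped in range, with Eno2 above in 11 of 12 libraries, and Pfkp lay above Pgk1 in only 7 of 12. Pgk1 lay above Ldhb in 10 of 12 libraries and Ldhb above Ldha in 12 of 12, although the ranges of both pairs overlapped. Leaving aside the Aldoa fragment, with a coefficient of variation of 38.4%, the spread over the 12 libraries differed widely between genes, from a coefficient of variation of 2.14% for Gpi1 and 2.76% for Pfkm to 14.2% for Eno2 and 24.3% for Pgk1.

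**Figure D1:**
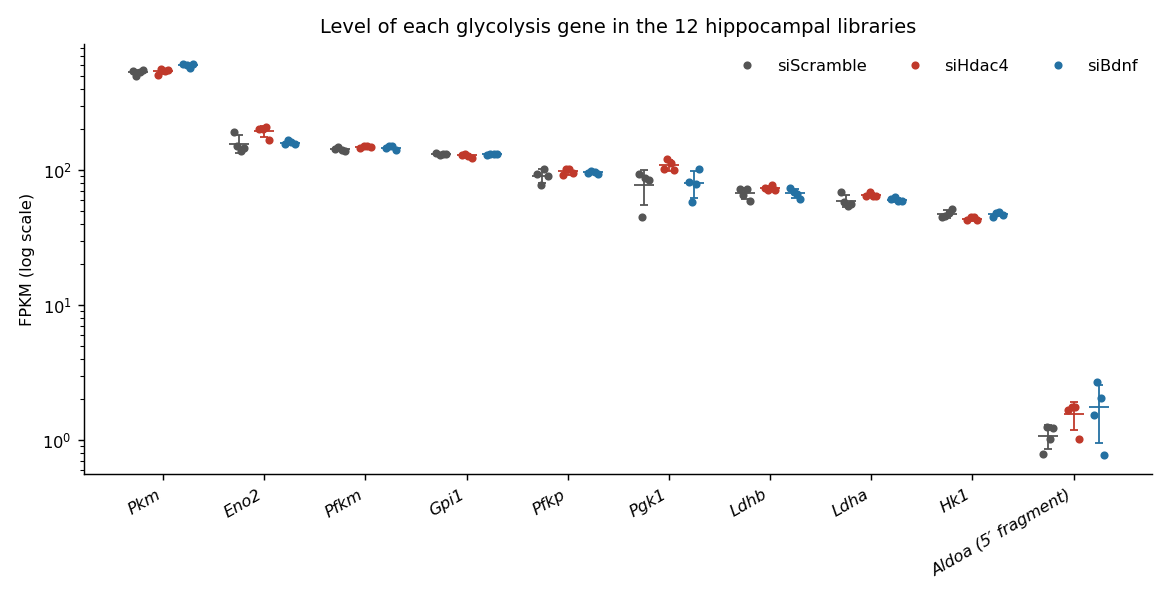
FPKM (log axis) of each glycolysis gene in 12 libraries, points being libraries and the bar and whiskers the group mean and SD (n = 4). Pkm lies between 500 and 614 FPKM, while the Aldoa row, a fragment at the 5′ end of the gene, lies under 3 FPKM.

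Hexokinase 1, which phosphorylates glucose and binds mitochondria, came from the locus on chromosome 10 from 62268811 to 62340553, overlapping 64.6% of the GENCODE gene. In siScramble Hk1 was at 44.6, 45.5, 48.1 and 51.7 FPKM, in siHdac4 at 42.4, 45.1, 44.6 and 42.5 FPKM and in siBdnf at 44.97, 47.6, 49.1 and 46.5 FPKM. The siHdac4 libraries were low but their range overlapped siScramble at its lower end. The log2 fold change of siHdac4 against siScramble was −0.12 (SE 0.056; limma adjusted p = 0.506), and that of siBdnf was −0.012 (adjusted p = 0.971). Without siScramble replicate 4, the highest library, the siHdac4 value was −0.076. Gpi1, which turns glucose 6-phosphate into fructose 6-phosphate, lay on chromosome 7 from 34199976 to 34231183. Its level stayed between 129.8 and 133.5 FPKM in siScramble, 122.6 and 132.2 FPKM in siHdac4, and 129.7 and 131.9 FPKM in siBdnf. Its log2 fold changes were −0.037, −0.0042 and −0.032 in the order siHdac4 against siScramble, siBdnf against siScramble and siHdac4 against siBdnf, with 95% intervals of 0.094 to each side. For siHdac4 against siScramble the interval of the fold ran from 0.913 to 1.04. The siHdac4 value against siBdnf turned to 0.070 with quantile scaling and to 0.017 with scaling to the median.

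Phosphofructokinase commits fructose 6-phosphate to the pathway, and its subunits come from 3 genes, of which Pfkm (the muscle form) and Pfkp (the platelet form) are members. Pfkm (chromosome 15, 98108376 to 98132440) was at 143.5, 146.9, 141.6 and 138.8 FPKM in siScramble, 146.5, 151.8, 150.1 and 147.2 FPKM in siHdac4, and 146.6, 149.7, 149.3 and 141.2 FPKM in siBdnf. The groups overlapped. The log2 fold change of Pfkm was 0.061 for siHdac4 against siScramble (SE 0.045; limma adjusted p = 0.631) and 0.039 for siBdnf against siScramble (adjusted p = 0.838), the second turning to −0.033 with quantile scaling. Pfkp (chromosome 13, 6548166 to 6648786) was at 93.9, 76.9, 101.5 and 91.0 FPKM in siScramble, 92.0, 102.1, 101.2 and 94.5 FPKM in siHdac4, and 95.5, 98.2, 97.1 and 93.5 FPKM in siBdnf. The second siScramble library was the lowest. The log2 fold change of Pfkp was 0.11 for siHdac4 (adjusted p = 0.628) and 0.087 for siBdnf (adjusted p = 0.778), both against siScramble. Without siScramble replicate 2 these were 0.029 and 0.010.

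The row of Aldoa, an aldolase that splits fructose 1,6-bisphosphate, covers 702 bases on chromosome 7 (126800294 to 126800995) and 8.3% of the GENCODE gene, at its 5′ end, with 401 exonic bases. Its level, 1.46 FPKM on average, is that of this fragment and is not read as the level of the mRNA. It was at 0.782, 1.24, 1.02 and 1.22 FPKM in siScramble, 1.66, 1.75, 1.74 and 1.02 FPKM in siHdac4, and 1.54, 2.67, 2.05 and 0.777 FPKM in siBdnf. The log2 fold change was 0.29 for siHdac4 (SE 0.19; limma adjusted p = 0.594) and 0.37 for siBdnf (adjusted p = 0.615), both against siScramble. At this low level the values depend on the pseudocount, with 0.11 and 0.15 for log2(FPKM + 5) and 0.48 and 0.57 for log2(FPKM + 0.1). In the authors' deposited table they were 0.53 and 0.72, with FDRs of 1.00 and 0.911. The retrogene Aldoart1, a close copy of Aldoa, was listed at 4.48 to 17.8 FPKM, and the sources do not say how reads were divided between these copies. The same holds for the processed pseudogenes of other glycolysis genes. Gapdh and Pgam1 were not analysed here.

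Pgk1, phosphoglycerate kinase, makes ATP in the lower part of the pathway and is encoded on the X chromosome (106187119 to 106203723). In siScramble it was at 93.6, 44.8, 87.6 and 84.6 FPKM, in siHdac4 at 101.2, 120.9, 112.6 and 99.3 FPKM, and in siBdnf at 81.1, 58.3, 78.7 and 102.2 FPKM. All 4 siHdac4 libraries lay above the highest siScramble library and above all but the highest siBdnf library. For siHdac4 against siScramble the log2 fold change was 0.53 (SE 0.22, 95% interval 0.048 to 1.01; unadjusted p = 0.0338; limma adjusted p = 0.498). Without siScramble replicate 2, the lowest library at 44.8 FPKM, it was 0.29, and the authors' deposited table gave 0.48 with a p-value of 0.108 and an FDR of 0.964. Against siBdnf the Pgk1 value in siHdac4 was 0.46 (SE 0.22; adjusted p = 0.339). Non-overlapping siHdac4 and siScramble libraries were found at 3.53% of all loci (648) and at 1 of the 10 genes, Pgk1, a count within 1 gene of that share.

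Enolase makes phosphoenolpyruvate, and Eno2 (chromosome 6, 124759756 to 124769660) showed the smallest p of the 10 genes against siScramble. Its siScramble libraries were at 192.8, 150.3, 138.2 and 146.4 FPKM, the siHdac4 libraries at 202.9, 201.7, 207.1 and 168 FPKM, and the siBdnf libraries at 157, 165.9, 160.5 and 155.8 FPKM. The siHdac4 libraries overlapped siScramble only through the first siScramble library, and lay above every siBdnf library. For siHdac4 against siScramble the log2 fold change of Eno2 was 0.32 (SE 0.10, 95% interval 0.098 to 0.54; unadjusted p = 0.0086; limma adjusted p = 0.480), and without siScramble replicate 1 it was 0.42 (adjusted p = 0.0502). In the authors' deposited table the value was 0.31 with a p-value of 0.00315 and an FDR of 0.187, the smallest FDR among the 10 genes. For siHdac4 against siBdnf it was 0.28 (SE 0.10; adjusted p = 0.252), and for siBdnf against siScramble 0.038 (SE 0.10; adjusted p = 0.945), which turned to −0.050 with quantile scaling.

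Pyruvate kinase Pkm ends glycolysis by making pyruvate and ATP. Its locus (chromosome 9, 59655920 to 59679362) holds the splice forms together, so they are not told apart. In siScramble Pkm was at 537.6, 500, 530.8 and 554.2 FPKM, in siHdac4 at 505, 559.5, 540.1 and 553.3 FPKM, and in siBdnf at 613.7, 597.5, 574.5 and 605.4 FPKM. The siBdnf libraries stood above every library of the other groups. The log2 fold change for siBdnf against siScramble was 0.17 (SE 0.067, 95% interval 0.025 to 0.32; unadjusted p = 0.0255; limma adjusted p = 0.524) and for siHdac4 against siBdnf −0.15 (SE 0.067; unadjusted p = 0.048; adjusted p = 0.316). With quantile scaling the first value was 0.052 (adjusted p = 0.939) and the second turned to 0.073. Non-overlapping libraries were found at 4.87% of all loci for siBdnf against siScramble (1 of the 10 genes) and at 13% for siHdac4 against siBdnf (3 of the 10 genes). Against siScramble the siHdac4 value of Pkm was 0.024 (adjusted p = 0.916).

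Lactate dehydrogenase is a tetramer of A subunits (Ldha), which favour lactate formation, and B subunits (Ldhb), which favour lactate use. Ldha (chromosome 7, 46845788 to 46856133) was at 68.4, 58.2, 54.4 and 56.2 FPKM in siScramble, 64.2, 69.0, 63.9 and 64.2 FPKM in siHdac4, and 60.8, 62.5, 58.5 and 58.7 FPKM in siBdnf. The siHdac4 libraries lay above all siBdnf libraries and above 3 of the 4 siScramble libraries. The log2 fold change of Ldha was 0.14 for siHdac4 against siScramble (SE 0.068; limma adjusted p = 0.507) and 0.12 for siHdac4 against siBdnf (adjusted p = 0.42). Ldhb (chromosome 6, 142490280 to 142508240) was at 72.9, 65.8, 72.6 and 59.0 FPKM in siScramble, 73.7, 71.2, 77.8 and 70.9 FPKM in siHdac4, and 73.5, 68.5, 66.2 and 61.0 FPKM in siBdnf. Its groups overlapped, and its log2 fold change was 0.12 for siHdac4 (adjusted p = 0.582) and −0.0037 for siBdnf (adjusted p = 0.994), both against siScramble. Without siScramble replicate 4, the lowest library, the siHdac4 value was 0.060. The second Ldhb row, of type mixed, lay at chromosome 6 from 142486277 to 142488483, outside the GENCODE gene, and held 0.669 to 1.36 FPKM; its mean of 0.969 FPKM is below 1 FPKM, so it was not tested.

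Read as a list, the log2 fold changes of the 10 genes had a median of 0.11 for siHdac4 against siScramble (8 of 10 above 0), 0.039 for siBdnf against siScramble (7 of 10) and 0.02 for siHdac4 against siBdnf (6 of 10). The medians over all loci were −0.0089, 0.021 and −0.028, with 47.6%, 56.5% and 43% of all loci above 0. Leaving out 1 library at a time moved the first median between 0.084 (without siScramble replicate 4) and 0.14 (without siScramble replicate 1). The second median then lay between 0.015 (without siScramble replicate 2) and 0.10 (without siScramble replicate 1). The third lay between 0.0044 (without siHdac4 replicate 2) and 0.054 (without siBdnf replicate 2). Without the Aldoa fragment the 3 medians were 0.11, 0.038 and 0.022. Groups that share the siScramble libraries are not independent, so the first 2 are given side by side only. In the authors' deposited table the remaining 9 genes of the siHdac4 comparison, and all 10 of the siBdnf comparison, had an FDR of 0.911 or more.

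**Figure D2:**
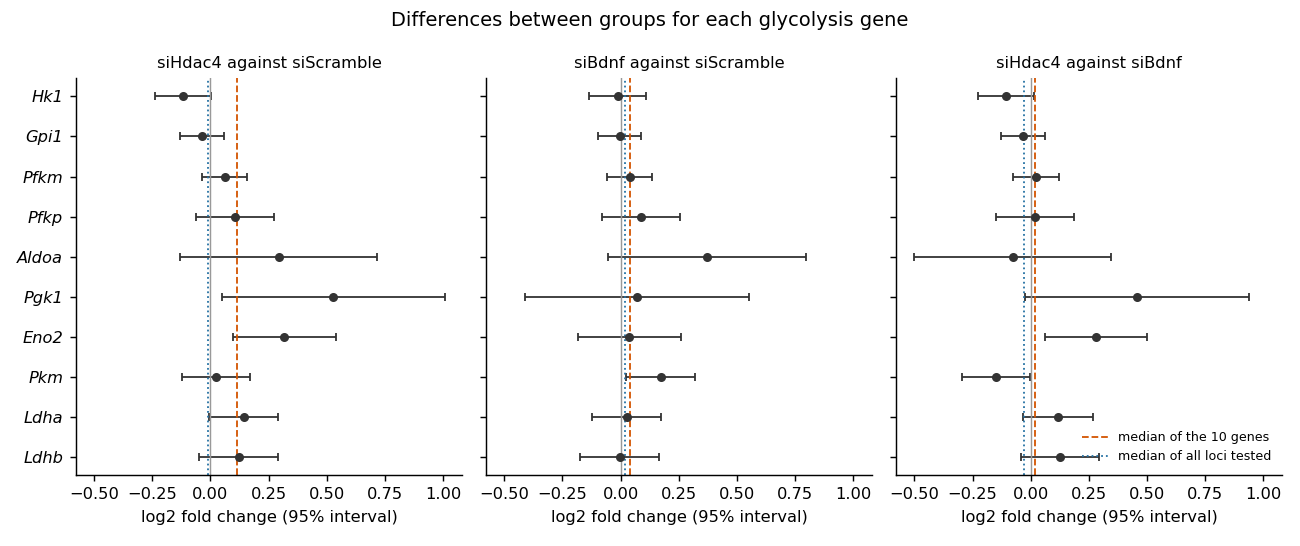
Log2 fold change of each glycolysis gene (points) with its 95% interval, on the log2(FPKM + 1) scale, in 3 comparisons; broken lines mark the medians of the 10 genes and of all loci tested. Only Pgk1 and Eno2 (siHdac4 against siScramble), Pkm (siBdnf against siScramble), and Eno2 and Pkm (siHdac4 against siBdnf) have intervals that leave out 0, and none passes the adjusted threshold.

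Deviations from each gene's mean show how the enzymes moved by library. Averaged over the 9 genes other than Aldoa, the deviation on the log2(FPKM + 1) scale ran from −0.19 to 0.05 in siScramble, 0.011 to 0.12 in siHdac4 and −0.034 to 0.0011 in siBdnf. The second siHdac4 library was highest, with 8 of 9 genes above their means, and the second siScramble library lowest, with 1 of 9. In that siScramble library 1 read was worth 1.3 times as much FPKM as in siScramble library 1, the highest of the 9 libraries in which this could be read from low values. The part of depth in the result was not tested.

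**Figure D3:**
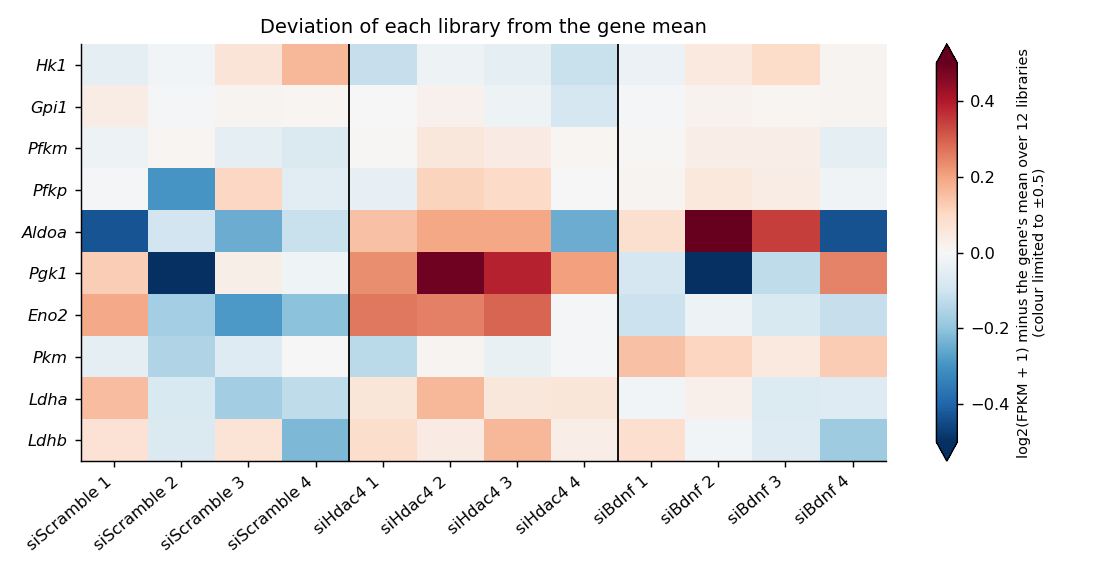
Deviation of each library (columns) from the mean of each gene (rows) on the log2(FPKM + 1) scale, with colour limited to ±0.5 and lines between groups. Pgk1 is lowest in siScramble library 2 and siBdnf library 2 and lies above its mean in all 4 siHdac4 libraries.

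Isozymes were compared by their shares of the summed FPKM of each step, a comparison added after the data were seen. Hk1 gave 91.1% of the hexokinase level over 12 libraries, Eno2 84.4% of the enolase level, and Ldhb 53% of the lactate dehydrogenase level. Phosphofructokinase was Pfkm at 51.7%, Pfkp at 33.5% and Pfkl, the liver form, at 14.8%. The enolase share of Eno2 was 82.7, 83.9, 82.1 and 83.9% in siScramble, 85.3, 84.3, 84.3 and 86.0% in siHdac4, and 83.9, 84.2, 85.1 and 86.6% in siBdnf. All siHdac4 libraries lay above all siScramble libraries in that share, by 1.82 percentage points on average (exact two-sided permutation p = 0.0286, the smallest that 4 against 4 libraries can give; adjusted over 15 comparisons 0.143). The siBdnf mean share of Eno2 differed from siScramble by the same 1.82 points (exact permutation p = 0.0571, adjusted 0.214), and that of siHdac4 from siBdnf by −0.0038 points. The hexokinase share of Hk1 differed by −1.76 percentage points between siBdnf and siScramble (90.4% ± 0.53 against 92.2% ± 0.712, SD, n = 4 each; exact permutation p = 0.0286, adjusted 0.143), and the Pfkp share by −0.707 points between siHdac4 and siBdnf (p = 0.0286 by the exact permutation test, adjusted 0.143). The other 12 comparisons had an exact p of at least 0.0571. None passed adjustment.

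**Figure D4:**
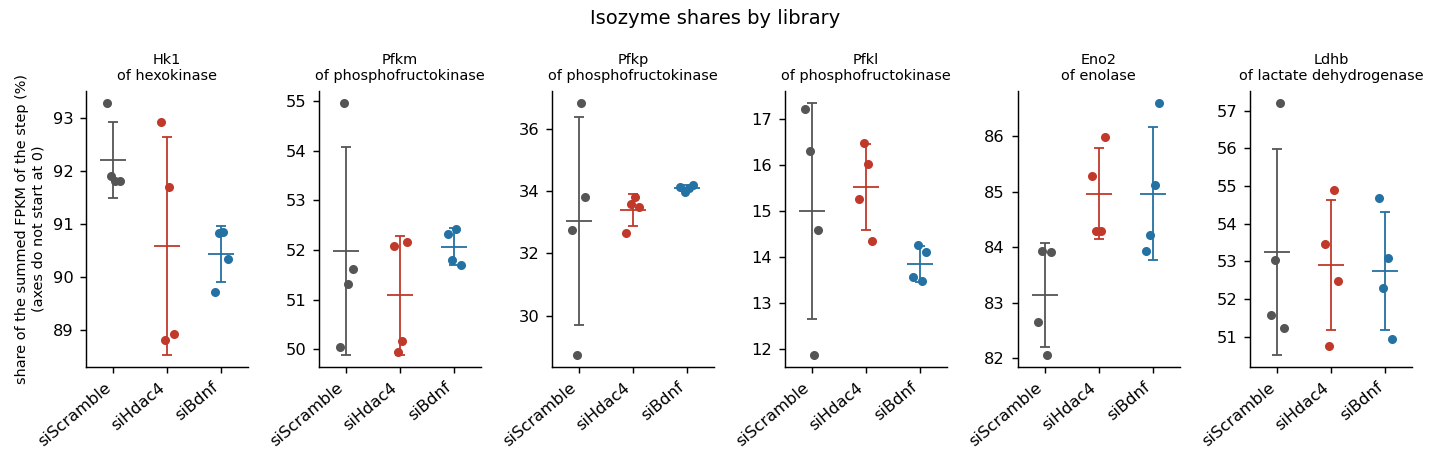
Share (%) of each isozyme in the summed FPKM of its step, by library (points), with group mean and SD (n = 4); the axes do not start at 0. Eno2 shares in siHdac4 (84.3 to 86.0%) lie above those in siScramble (82.1 to 83.9%).

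Genes around the pathway were summarised from 8 lists of 125 symbols, of which 108 had a row and 101 were tested. None passed the adjusted threshold in any comparison, and the unadjusted p was under 0.05 for 7 higher and 3 lower genes for siHdac4 against siScramble, 3 and 3 for siBdnf against siScramble, and 7 and 4 for siHdac4 against siBdnf. These are 9.9%, 5.94% and 10.9% of the list genes tested, at or below the 9.95%, 8.62% and 15.6% of all loci. Among other glycolytic enzymes, 11 of 22 symbols were tested, and 10 of the 11 lay above 0 for siHdac4 against siScramble, with a median of 0.11. Aldoc, the brain aldolase, whose row is shared with Pigs, averaged 201 ± 23.1 FPKM in the controls and 234 ± 10.9 FPKM under siHdac4 (difference 0.23 on the log2 scale; limma adjusted p = 0.482; n = 4 each). Tpi1, which interconverts the trioses, was at 116 and 126 FPKM (0.12; adjusted p = 0.631), and Eno1, the ubiquitous enolase, at 28.9 and 31.3 FPKM (0.11; adjusted p = 0.774).

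Regulators and bypass enzymes had 15 members tested, with 7 of 15 above 0 and a median of −0.011 for siHdac4 against siScramble. Hif1a, the oxygen-regulated transcription factor, was at 37.6 ± 1.65 FPKM in siScramble, 37.3 ± 1.81 FPKM in siHdac4 and 38.9 ± 0.627 FPKM in siBdnf (SD, n = 4 each). Its partner Arnt, whose row is shared with Ctsk, was at 41.8, 35.8 and 42.3 FPKM. Vhl, which targets Hif1a for degradation, was at 11.5, 12.8 and 12.4 FPKM (unadjusted p = 0.0468 and limma adjusted p = 0.499 for siHdac4 against siScramble), and Pcx, pyruvate carboxylase, at 4.93, 5.35 and 4.41 FPKM. Of 12 carrier genes tested, Slc2a3, the neuronal glucose transporter, was at 35.0, 36.9 and 34.9 FPKM, and Bsg, a chaperone of lactate carriers, at 213.9, 204 and 209.6 FPKM. Emb, a further chaperone of these carriers, was at 18.5, 13.5 and 15.6 FPKM, and Slc2a12 at 5.12, 1.44 and 1.56 FPKM with an SD of 5.63 FPKM in siScramble. For siHdac4 against siScramble, limma gave an adjusted p of 0.491 for Emb and 0.507 for Slc2a12.

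Downstream, the pyruvate dehydrogenase complex had 12 of 12 genes tested, with medians of 0.021, 0.03 and 0.013 in the 3 comparisons. Pdk1, a kinase that switches the complex off, was at 16.9 ± 0.966 FPKM in siScramble, 17.3 ± 1.11 FPKM in siHdac4 and 19.7 ± 0.673 FPKM in siBdnf, with siBdnf libraries above all siScramble libraries (log2 fold change 0.21; limma adjusted p = 0.495; n = 4 each). Dlat, its acetyltransferase core, was 0.17 higher in siHdac4 than in siBdnf (adjusted p = 0.241), and Pdha1 and Dld stood at 124 and 59.9 FPKM in siScramble. In the pentose phosphate pathway H6pd, its endoplasmic reticulum dehydrogenase, averaged 3.53 FPKM with siScramble and 2.33 FPKM with siBdnf (−0.44; adjusted p = 0.495), and the row of Rpe, shared with Gm15789 and Unc80, averaged 70.7 FPKM with siScramble and 62.0 FPKM with siHdac4 (−0.18; adjusted p = 0.482). Taldo1, transaldolase, was at 49.1, 51.5 and 46.7 FPKM. Of the 8 pentose phosphate genes tested, 2 lay above 0 for siHdac4 against siScramble, with a median of −0.061.

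Of 17 glycogen genes tested, 8 lay above 0 for siHdac4 against siScramble. Ugp2, which makes UDP-glucose, was at 22.1 ± 1.98 FPKM in siScramble, 25.1 ± 0.719 FPKM in siHdac4 and 25.2 ± 1.32 FPKM in siBdnf (limma adjusted p = 0.487 for siHdac4 and 0.515 for siBdnf; n = 4 each). Pgm2, a phosphoglucomutase, was at 15.8, 18.5 and 15.5 FPKM, and Pygb, the brain glycogen phosphorylase, at 58.2, 58.0 and 60.6 FPKM. Among 10 shuttle genes, Mdh1 was at 254, 271 and 266 FPKM, Got1 at 96.3, 105 and 107 FPKM, and Got2 at 36.9, 41.5 and 35.5 FPKM. Of 16 citrate cycle genes, 11 lay above 0 for siHdac4 against siScramble (median 0.098). Idh3g was at 298, 282 and 299 FPKM, Sdhb at 51.9, 64.0 and 52.7 FPKM, and Suclg2 at 8.3, 6.91 and 8.62 FPKM, in the order siScramble, siHdac4 and siBdnf.

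**Figure D5:**
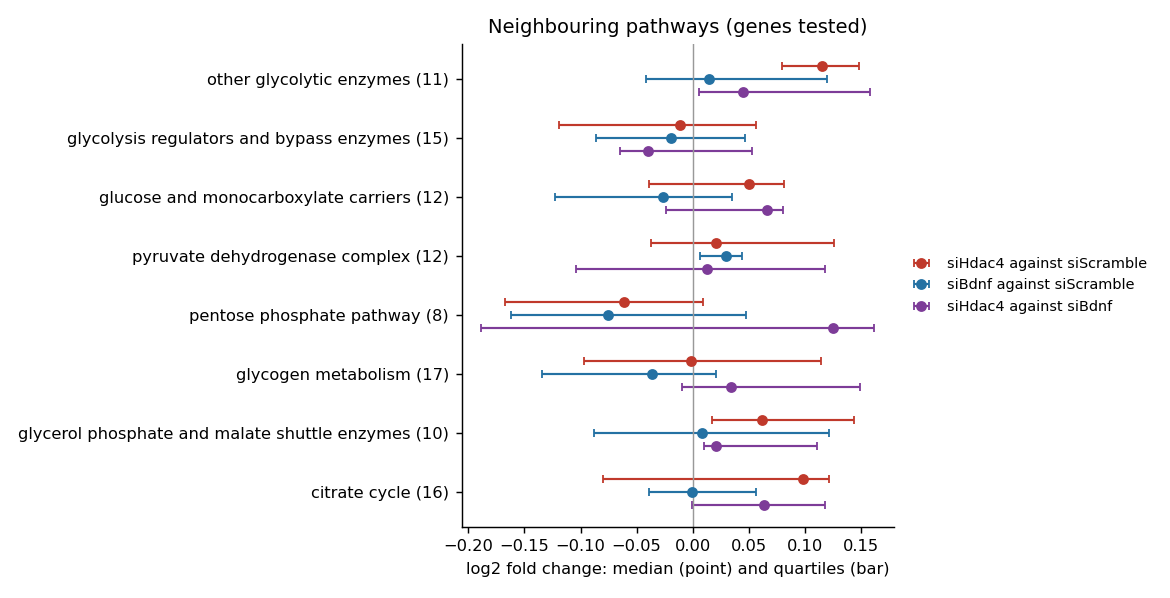
Median log2 fold change (points) and the range between the lower and upper quartiles (bars) of 8 lists around glycolysis in 3 comparisons, with the number of genes tested in brackets. For siHdac4 against siScramble the list medians run from −0.061 (pentose phosphate pathway) to 0.11 (other glycolytic enzymes), with citrate cycle genes at 0.098.

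By mean absolute difference of standardized levels over 12 libraries, Cox6c was the most similar of 8259 protein-coding genes to the mean of the 10 genes (0.257 SD units). Nelfcd (0.296), Rpl4 (0.304), Armc8 (0.328) and H2afy (0.333) followed, against a median difference of 1.05 over all genes compared. The 10 genes themselves differed from their mean by 0.446 (Pfkp) to 1.34 (Hk1), with Gpi1 at 1.1, so likeness to the mean is not likeness to each gene. The mean was taken over log2(FPKM + 1) values not standardized by gene, so more variable rows weigh more, and it includes the Aldoa fragment. Some library-wide properties also differed between libraries. The summed level of the 9 choroid plexus markers was 68.3 to 2691 FPKM in siScramble (high in libraries 1 and 3), 65.5 to 136.5 FPKM in siHdac4 and 72.4 to 162.4 FPKM in siBdnf. The 7 microglia markers summed to 62.0 to 74.5 FPKM in siScramble, 72.4 to 78.6 FPKM in siHdac4 and 67.7 to 70.6 FPKM in siBdnf. The siHdac4 sums thus lay above the siBdnf sums without overlap, as Eno2 and Ldha did. Endothelial marker sums, over the 5 of 6 markers with a row, separated the other way, at 465.8 to 487.4 FPKM in siHdac4 and 497 to 518.5 FPKM in siBdnf. Their mean log2(FPKM + 1) levels overlapped, at 3.87 to 4.11 in siHdac4 and 3.89 to 4.01 in siBdnf. On that scale the microglia markers stayed apart, at 3.39 to 3.47 in siHdac4 and 3.30 to 3.34 in siBdnf. Of all loci tested, 13% had non-overlapping siHdac4 and siBdnf libraries. The part of these markers in the results was not tested. Levels in siScramble libraries 3 and 4 were higher at longer transcripts, by 0.035 and 0.039 on the log2 scale for each doubling of length, where the siHdac4 libraries gave −0.038 to −0.0093. Without these 2 libraries the siHdac4 against siScramble value was 0.19 for Eno2 and 0.048 for Ldha. With each library corrected for length and GC content the values were 0.33 for Eno2 and 0.13 for Ldha, beside 0.32 and 0.14 without the correction. When siScramble libraries 1 and 3 were left out, the 10 genes had a median of 0.18 for siHdac4 and 0.11 for siBdnf against siScramble, against 0.11 and 0.039 with them. Markers of brain cell types were present, with 10 of 10 neuronal and 8 of 8 astrocyte markers at 1 FPKM or more on average. These lists do not tell the labelled hippocampus from other brain regions. The siRNA targets did not separate the groups. Hdac4 ranged from 31.5 to 45.8 FPKM with siScramble and from 34.0 to 48.2 FPKM with siHdac4 (difference 0.067 on the log2 scale; limma adjusted p = 0.864), and Bdnf from 5.14 to 5.51 FPKM with siScramble and from 4.83 to 5.43 FPKM with siBdnf (−0.043; adjusted p = 0.907), so the groups are named by their labels.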

How the data were processed

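The deposited tables give FPKM values per library, made by the authors, and per the submitters' processing notes TopHat2 2.0.9, Cufflinks and Cuffdiff were used. How libraries were scaled, the genome build and the annotation are not given in the sources used here. Per the labels' protocols, poly-A selected directional libraries were made from TRIzol RNA. The authors also deposited a log2 fold change, a p-value and an FDR per locus, used only where their table is named. Read depth is unknown; only relative depth could be read from low values, for 9 of 11 libraries. Limma 3.58.1 in R 4.3.3 was fitted to log2(FPKM + 1) at the 18339 loci that averaged 1 FPKM or more, all 12 libraries in 1 fit of 3 groups, with a trended prior variance and Benjamini-Hochberg adjustment over all loci tested. The 63 loci listed at 0 through a group were left out. Fold changes on this scale understate changes of low genes. Locus positions are as deposited, and gene overlaps were read from GENCODE M21 on GRCm38. Tables used Python 3.11.15, pandas 2.3.3, numpy 2.4.6, scipy 1.17.1 and matplotlib 3.10.9. The fit was tested on simulated data. The 10 genes, the gene lists and the rules were chosen with earlier results of these data known. All 10 genes are named, and of each list the 2 of highest level and the 2 of smallest unadjusted p. Of the list genes so chosen, 2 are not reported here. Alternatives were another pseudocount, filters, scalings and variance priors, weighted libraries, pairs of groups on their own, the replicate number as a block, corrections for length and GC content, and leaving out libraries. The isozyme shares were added after the data were seen.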

Additional observations from a re-analysis of the deposited data

Results flagged for a closer look

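In 51 groups of 4 libraries, a library standing apart from the other 3 was looked for, and chance gives about 1 in 20 groups. In siHdac4, library 4 was the lowest for Eno2 at 168 FPKM and for the Aldoa fragment at 1.02 FPKM, each with the other 3 libraries close together. In siHdac4, library 2 was the highest for Ldha at 69.0 FPKM. In siScramble, library 1 had the highest share of Hk1 in the hexokinase level, 93.3%.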

How the results depend on the processing

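Under 30 alternatives, 12 of which left out 1 library, no glycolysis gene passed the adjusted threshold in any comparison, the smallest adjusted p being 0.0502. Of 897 values of single genes 31 changed sign, none of them past the threshold. Many of the 897 could not change sign, because several alternatives leave the fold change itself as it was. These are the filters, the choice of loci, the variance priors, the replicate block and the 2 groups alone. Leaving out a library of the group not compared does the same. The replicate block also gave 0 genes called; same-numbered libraries correlated at −0.076 to 0.24, so the numbers were not taken to pair them.

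With quantile scaling the median of the 10 genes was −0.031 for siBdnf against siScramble and 0.12 for siHdac4 against siBdnf. For siBdnf against siScramble, Pfkm then gave −0.033, Pgk1 −0.0021, Eno2 −0.050 and Ldha −0.029, and for siHdac4 against siBdnf Gpi1 gave 0.070 and Pkm 0.073 (Gpi1 0.017 with median scaling). Without siScramble libraries 1 and 3 the medians against siScramble were 0.18 for siHdac4 and 0.11 for siBdnf, where Gpi1 gave 0.0064 and Ldhb 0.11. Without siScramble libraries 3 and 4, siBdnf gave 0.061 for Hk1, −0.091 for Eno2 and −0.069 for Ldha. With library weights Ldhb gave 0.024 in siBdnf, and with correction for length and GC content Hk1 gave 0.00071 and Ldhb 0.0053. The cause was not tested.

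Leaving out 1 library at a time gave −0.0046 to 0.055 for Pkm in siHdac4 against siScramble. For siBdnf against siScramble it gave −0.041 to 0.030 for Hk1, −0.010 to 0.0032 for Gpi1, −0.17 to 0.21 for Pgk1, −0.019 to 0.14 for Eno2, −0.014 to 0.095 for Ldha and −0.066 to 0.042 for Ldhb. For siHdac4 against siBdnf it gave −0.0038 to 0.046 for Pfkp and −0.27 to 0.076 for Aldoa. The share differences ran from −1.9 to −1.41 points for Hk1 (siBdnf against siScramble) and −0.847 to −0.467 for Pfkp (siHdac4 against siBdnf). For Eno2 (siHdac4 against siScramble) they ran from 1.47 to 2.09. In these share comparisons the groups did not overlap, so leaving out 1 library could not turn their direction.

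Calls over all loci ranged more widely, to 36 for siHdac4 against siScramble without siScramble replicate 1, to 48 for that comparison and 51 for siBdnf against siScramble with loci at 0 kept, to 180 for siBdnf against siScramble without siScramble libraries 3 and 4, and to 167 for siHdac4 against siBdnf with the 2 groups alone. The depth of each library in reads is not known, so no floor is given for the low Aldoa row.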
